A study of Mus musculus with 6 samples.

Results

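The carnitine acyltransferases are a small family of enzymes that move acyl groups between coenzyme A and carnitine. In the deposited transcript table they were taken by gene symbol as Cpt1a, Cpt1b, Cpt1c, Cpt2, Crat and Crot, 6 of 29072 genes. Long-chain fatty acids cross into the mitochondrial matrix as carnitine esters. A carnitine palmitoyltransferase 1 on the outer membrane makes the ester, a translocase carries it inward, and carnitine palmitoyltransferase 2 on the inner membrane gives the acyl group back to coenzyme A for beta-oxidation. The first step is inhibited by malonyl-CoA and is regarded as a control point of fat burning, the main fuel use of heat-producing brown fat.

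The series measured RNA in interscapular brown adipose tissue, the brown fat depot between the shoulder blades of the mouse. The knockout group, of genotype UCP1(-/-), and the wildtype group were both of strain C57BL/6J and held 3 libraries each. The labels state no age, sex, housing temperature or treatment, nor the allele that inactivates Ucp1, the gene of the uncoupling protein that releases the mitochondrial proton gradient as heat. Nothing in the labels ties the libraries of a group to separate animals. The p-values therefore measure only the variation between the samples given, part or all of which may be technical.

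The spacing of low values implied 15800000 to 18000000 reads per library. Ucp1 stood at 372 to 389 RPKM (read numbers per unit of transcript length and library size) in the knockout libraries and at 1714 to 3151 RPKM in the wildtype libraries. The targeted gene followed the labels, and since RPKM here covers whole transcripts, the remaining reads do not tell which stretch is deleted. Of 10 brown adipocyte markers, 10 passed the filter on low values, 1 was called as higher (the fatty acid elongase Elovl3), 2 as lower (Ucp1 itself and the transcription factor Prdm16) and 7 did not pass, with a median log2 change of 0.12. The summed level of the 9 markers other than Ucp1 was 4294 to 4363 RPKM in the knockout and ran from 3863 to 4542 RPKM across wildtype libraries, which overlapped. After median-of-ratios scaling 0 of the 10 were called as higher and 2 as lower. The dissected tissue also held skeletal muscle RNA in unequal amounts: the summed level of 21 muscle markers was 1898 to 2144 RPKM in the knockout and 66.3 to 316 RPKM in the wildtype libraries, and all 21 passed the test as higher in the knockout. Of these, 5 had a wildtype mean under 1 RPKM and entered the test only through the knockout group, where they are high. In bulk tissue, fewer cells of a type and less RNA per cell cannot be told apart.

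Of the 6 family members, 1 rose in knockout brown fat, the outer-membrane enzyme Cpt1a, and no member fell. Cpt1c, whose mean was under 1 RPKM in both groups, was removed by the filter on low values, which left 5 members to test. Cpt1a passed at an adjusted p of 0.05 in limma, a linear model fitted across all 11541 tested genes. The background share of genes called was 7.75% in either direction, and 7.00% of tested genes were called as higher in the knockout. As lower, 0.745% were called. Median-of-ratios scaling, which brings the median gene to the same level across libraries, moved the median log2 change of all tested genes from 0.076 to -0.006. Under it 5.58% of genes were called, 4.30% as higher and 1.28% as lower (496 and 147 genes, in place of 808 and 86 as deposited). Cpt1a was called there too, with a log2 change of 0.43 (limma adjusted p = 0.0224).

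Levels per transcript length differed widely among the members. By the row kept for each gene, the order in wildtype brown fat was Cpt1b, Cpt2, Crat, Crot, Cpt1a and Cpt1c. The means were 273, 224, 212, 18.4, 2.97 and 0.374 RPKM. Cpt1b, Cpt2 and Crat lay at the 98.8th, 98.5th and 98.4th percentiles of wildtype levels among tested genes, whereas Cpt1a lay at the 28.9th. Neighbours in the upper part of this order were not separated by their spread in wildtype libraries, where the values of Cpt1b overlapped those of Cpt2 and the values of Cpt2 overlapped those of Crat. Below Crat the wildtype values did not overlap between neighbours: Crat stood 11.6-fold above Crot, Crot 6.19-fold above Cpt1a and Cpt1a 7.95-fold above Cpt1c. In the knockout libraries Cpt1b stood clear of Cpt2, at 1.54-fold its mean level, while the ratio of these means in wildtype was 1.22.

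**Figure D1:**
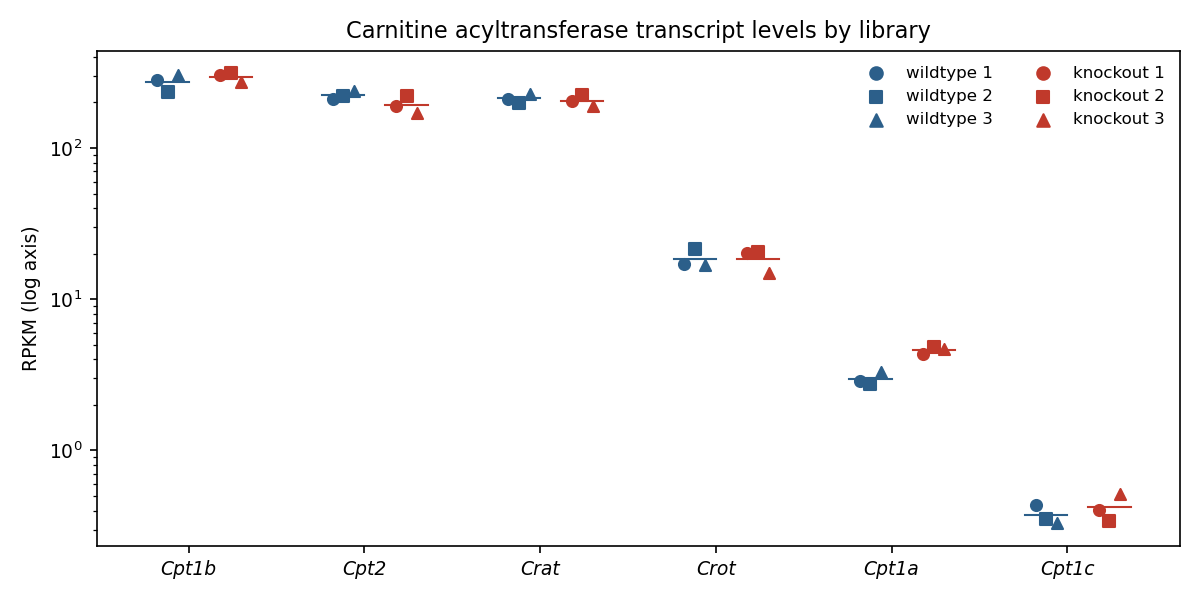
Transcript levels in RPKM (log axis) of the 6 carnitine acyltransferases in each library, with a bar at each group mean. Wildtype libraries are blue and knockout libraries red, with the marker shape giving the replicate number. Cpt1b, Cpt2 and Crat lie between 170 and 312 RPKM, and Cpt1a is the member whose groups do not overlap.

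Cpt1a encodes the isoform of the outer-membrane enzyme best known from liver and most other tissues outside muscle. Its knockout libraries held 4.33, 4.85 and 4.67 RPKM and its wildtype libraries 2.87, 2.75 and 3.29 RPKM. Every knockout library lay above every wildtype library, with the lowest knockout value at 4.33 and the highest wildtype value at 3.29 RPKM. The groups did not overlap for 29.4% of all tested genes, 24.3% with the knockout above and 5.14% with it below, so separation alone is common in this table. The mean was 4.61 ± 0.265 RPKM in knockout and 2.97 ± 0.282 RPKM in wildtype brown fat (SD, n = 3 each), a 1.55-fold higher level. On the scale of log2(RPKM + 1), where changes of low genes such as this come out too small, Cpt1a rose by 0.50 (SE 0.086, 95% interval 0.30 to 0.70, limma adjusted p = 0.0103).

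About 193 to 363 reads per library lay behind the Cpt1a value. In the RefSeq annotation a long noncoding RNA, Gm36532, overlaps Cpt1a and is not among the genes with a value. Any part of its reads in the Cpt1a value was not tested. The table gives 7 transcript rows for Cpt1a, which share reads and are not independent. In 5 of them the mean over all libraries was above 0.5 RPKM, and in each of these 5 the knockout libraries lay above all wildtype libraries, with folds of 1.51 to 1.66. Without knockout replicate 2, the library with the most Cpt1a, the log2 change was 0.47 (limma adjusted p = 0.0549). Without that library 3.96% of all tested genes were called, 3.61% as higher and 0.346% as lower. That was the only loss of the call in 14 alternatives, over which the adjusted p ran from 0.00556 to 0.0549.

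The wildtype library with the least muscle RNA, replicate 3 with 8.54 RPKM of Acta1 (the actin of skeletal muscle), held the most Cpt1a among wildtype libraries. Without that library the log2 change of Cpt1a was 0.56 (limma adjusted p = 0.00936). Both Acta1 and Cpt1a were higher in every knockout library than in any wildtype library, so muscle RNA and genotype cannot be told apart. Markers of some other cells were also compared. The summed level of 9 macrophage markers was 73.9 to 100.5 RPKM in knockout and 45.0 to 72.0 RPKM in wildtype libraries, without overlap. Of 8 tested, 1 passed as higher, 7 reached an unadjusted p under 0.05 in limma, and the log2 changes of all 8 lay between 0.34 and 0.89. Over all tested genes, 2724 of 11541 reached an unadjusted p under 0.05 in limma. Among 5 fibroblast markers 1 passed as higher, and 0 after median-of-ratios scaling, with summed levels of 156 to 184 and 120 to 162 RPKM that overlapped. No marker passed among 7 endothelial, 8 adipocyte and 4 smooth muscle markers in limma or limma-voom, where 1, 0 and 0 reached an unadjusted p under 0.05 in limma. The summed level of 7 lymphocyte markers was 2.24 to 3.88 RPKM in knockout and 1.46 to 1.92 RPKM in wildtype libraries, without overlap. Of these 7, 6 had means under 1 RPKM. The 1 tested, Ptprc, entered the test only through the knockout group, where it is higher, and did not pass (limma adjusted p = 0.0989). The part of muscle, macrophages, lymphocytes and fibroblasts in the Cpt1a result was not tested. Of 7 liver markers, 6 had means under 1 RPKM and their summed level was 1.73 to 3.51 RPKM in knockout and 1.38 to 2.18 RPKM in wildtype libraries. The defining liver gene Alb (albumin) stood at 0.217 to 0.611 RPKM in knockout and at 0.241 to 0.300 RPKM in wildtype libraries, and no liver marker was listed at 0 in all libraries.

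**Figure D2:**
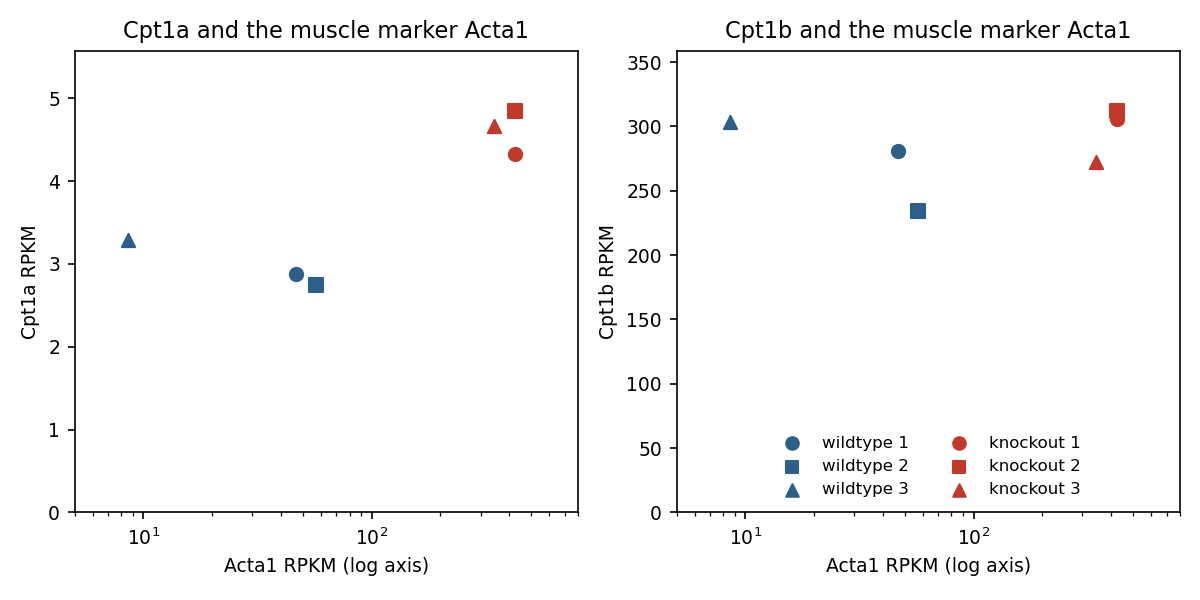
Cpt1a (left) and Cpt1b (right) in RPKM against the muscle marker Acta1 (RPKM, log axis), a point for each library. Wildtype replicate 3, with 8.54 RPKM of Acta1, holds 3.29 RPKM of Cpt1a and 304 RPKM of Cpt1b, the highest wildtype value of each.

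The start region of Cpt1a is shown because this is the member that rose, beside that of Cpt2, its partner on the inner membrane. Both are the 250 bases before the transcription start in RefSeq, build GRCm38.p6, at chr19:3323051-3323300 on the plus strand for Cpt1a and chr4:107923590-107923839 on the minus strand for Cpt2. The build the authors used is not given in the sources used here. Both strands were searched, and capitals mark the GC box GGGCGG, the CCAAT box CCAAT and the nuclear receptor half-site AGGTCA, which do not overlap each other in these windows.
Cpt1a: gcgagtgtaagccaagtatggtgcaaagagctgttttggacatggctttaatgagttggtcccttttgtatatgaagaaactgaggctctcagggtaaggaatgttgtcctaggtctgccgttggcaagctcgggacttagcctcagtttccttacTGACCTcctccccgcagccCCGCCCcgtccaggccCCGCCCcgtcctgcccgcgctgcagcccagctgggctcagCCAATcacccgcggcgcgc
Cpt2: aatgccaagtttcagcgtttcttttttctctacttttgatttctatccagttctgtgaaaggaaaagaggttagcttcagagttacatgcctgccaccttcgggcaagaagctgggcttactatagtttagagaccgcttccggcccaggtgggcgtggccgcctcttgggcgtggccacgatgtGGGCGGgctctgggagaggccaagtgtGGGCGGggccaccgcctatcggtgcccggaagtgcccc
The Cpt1a window held 2 GC boxes, 1 CCAAT box and 1 half-site, and the Cpt2 window held 2 GC boxes and neither of the others. Of 27025 mouse promoters of the same length, 32.9% held a GC box, 34.5% a CCAAT box and 13.8% a half-site. The element TGATGNAA, a form bound by the stress factor ATF4, was in neither window and in 3.5% of promoters. RefSeq windows were matched for 4 of the 6 members, and those of Cpt1c and Crot are not printed. The Cpt1c window held 1 GC box, 1 CCAAT box and 1 half-site, and the Crot window 2 GC boxes and 1 CCAAT box. Each kind of element in the Cpt1a window was thus also in that of Cpt1c. A match of letters is a description of the sequence and shows no binding.

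Cpt1b encodes the isoform of heart, skeletal muscle and brown fat. By the row kept for each gene, it was the most abundant member in every library. Its knockout libraries held 305, 312 and 272 RPKM and its wildtype libraries 280, 235 and 304 RPKM. The groups overlapped: wildtype replicate 3 lay above knockout replicate 3, and wildtype replicate 2 lay below all others. The means were 296 ± 21.5 RPKM in knockout and 273 ± 35.2 RPKM in wildtype brown fat (SD, n = 3 each). The log2 change was 0.12, with a 95% interval of -0.12 to 0.37, and it did not pass (limma adjusted p = 0.538). The interval covers both a lower and a higher level in the knockout, so equal levels are not shown.

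Cpt1b was set beside the muscle marker Acta1 within each group. The wildtype library with the least Acta1, replicate 3, held the most Cpt1b, and replicate 2, with the most Acta1 of that group (56.95 RPKM), held the least. In the knockout group Acta1 ran from 342 to 425 RPKM, and the library with 342 RPKM held the least Cpt1b. The part of muscle RNA in the Cpt1b level was not tested. The same wildtype replicate 2 also had the least Ucp1 of the wildtype group, at 1714 RPKM. Without it the log2 change of Cpt1b was 0.02 (limma adjusted p = 0.925), against 0.12 with all libraries.

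In the RefSeq annotation Cpt1b adjoins Chkb, a choline kinase gene, and a read-through transcript spans both. The table lists that transcript as BC090627, at 192 to 216 RPKM in knockout and 162 to 210 RPKM in wildtype libraries. Its log2 change was 0.14 (limma adjusted p = 0.472). It shares sequence with Cpt1b, so reads of both cannot be told apart and the Cpt1b level is uncertain to that extent. Chkb itself stood at 62.0, 67.1 and 67.0 RPKM in knockout and at 56.4, 49.4 and 60.2 RPKM in wildtype libraries. The Chkb groups did not overlap, but its log2 change of 0.24 did not pass (limma adjusted p = 0.143). The table gives 3 transcript rows for Cpt1b, each with a fold of 1.09 and overlapping groups.

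Cpt1c, an isoform known from neurons with little acyltransferase activity, was close to the limit of detection. Its knockout libraries held 0.402, 0.340 and 0.516 RPKM and its wildtype libraries 0.438, 0.353 and 0.330 RPKM, which rests on 15 to 26 reads per library. The groups overlapped, and the highest value was in knockout replicate 3. With no filter on low values the log2 change was 0.05 (limma adjusted p = 0.744). Limma-voom on recovered reads gave 0.16 with a 95% interval of -0.45 to 0.77 (adjusted p = 0.76), so a difference was not detectable at this depth. Of 9 neuron and Schwann cell markers, 7 had means under 1 RPKM, and Syt1, a synaptic vesicle protein, was listed at 0 in every library.

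**Figure D3:**
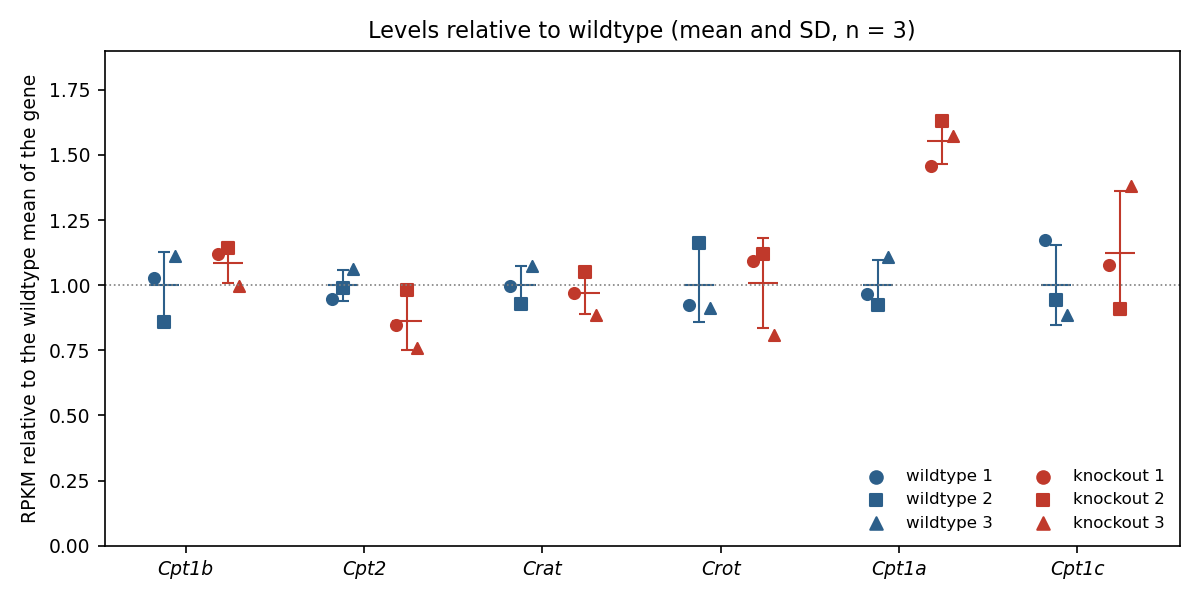
Level of each member in each library relative to the gene's wildtype mean (linear axis from 0), with group mean and SD over 3 libraries per group. Knockout Cpt1a lies at 1.55 times the wildtype mean, and the groups of the other 5 members overlap.

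Cpt2, the inner-membrane enzyme that regenerates acyl-CoA in the matrix, had the lower mean in the knockout group but did not pass. Knockout brown fat held 190, 219 and 170 RPKM and wildtype brown fat 211, 222 and 238 RPKM. Knockout replicate 2 lay above wildtype replicate 1, and the other knockout libraries lay below all wildtype libraries. The mean was 193 ± 24.9 RPKM for the knockout group against 224 ± 13.3 RPKM for the wildtype group (SD, n = 3 each). The log2 change was -0.22, with a 95% interval of -0.46 to 0.02 (limma adjusted p = 0.245). After median-of-ratios scaling it was -0.31 (adjusted p = 0.118), and over 14 alternatives the adjusted p ran from 0.118 to 0.497. All 5 transcript rows of Cpt2 had the lower mean in the knockout group, with folds of 0.862 to 0.892.

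Crat, carnitine acetyltransferase, handles short acyl groups in mitochondria and peroxisomes and buffers acetyl-CoA. Knockout replicates 1 to 3 held 206, 223 and 188 RPKM and wildtype replicates 1 to 3 212, 197 and 228 RPKM. The values of both groups were interleaved, and the lowest and the highest were in knockout replicate 3 and wildtype replicate 3. The log2 change was -0.05, with a 95% interval of -0.26 to 0.16 (limma adjusted p = 0.803). The table gives 12 rows for Crat with folds of 0.96 to 1.04, of which 10 had the lower mean in the knockout group. Means over all libraries ran from 24.5 to 329 RPKM among the Crat rows and from 285 to 304 RPKM among the Cpt1b rows. Which of Crat and Cpt1b is higher thus depends on the row kept. Dolpp1, whose annotated span overlaps that of Crat, stood far lower, at 5.90 to 7.21 RPKM in knockout and 4.63 to 5.55 RPKM in wildtype libraries (log2 change 0.30, limma adjusted p = 0.108).

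Crot, carnitine octanoyltransferase, lets medium-chain products of peroxisomal oxidation leave as carnitine esters. Its knockout libraries held 20.1, 20.5 and 14.9 RPKM and its wildtype libraries 17.0, 21.4 and 16.7 RPKM. Knockout replicate 3 was the lowest library and wildtype replicate 2 the highest, so the groups overlapped. The log2 change was 0.0042 with a 95% interval of -0.31 to 0.32 (limma adjusted p = 0.99). Its sign depended on the scaling, at -0.086 after median-of-ratios scaling.

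The balance between family members was compared within each library, which removes any scaling of the whole library. Cpt1a amounted to 1.42%, 1.55% and 1.72% of Cpt1b in the knockout libraries and to 1.02%, 1.17% and 1.08% in the wildtype libraries. All knockout libraries lay above all wildtype libraries, and Cpt1a remained a small fraction of Cpt1b in both groups. The log2 ratio was 0.51 higher in the knockout (-6.01 ± 0.139 against -6.52 ± 0.0975, SD, n = 3 each; exact permutation p = 0.10, two-sided). With 3 libraries against 3, 0.10 is the smallest p this test can give, and adjusted over the 3 ratios computed it was 0.15. Of the summed Cpt1 transcripts, Cpt1b made up 98.1% to 98.8% in every library and Cpt1c at most 0.186%.

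The sum of Cpt1a, Cpt1b and Cpt1c stood at 1.64, 1.45 and 1.64 times the level of Cpt2 in the knockout libraries and at 1.34, 1.07 and 1.29 times in the wildtype libraries. These values too did not overlap, with the lowest in wildtype replicate 2. The log2 ratio was 0.65 ± 0.102 in knockout and 0.30 ± 0.173 in wildtype, a difference of 0.35 (SD, n = 3 each; exact permutation p = 0.10, two-sided, adjusted 0.15). Crat stood at 10.2, 10.8 and 12.7 times the level of Crot in the knockout and at 12.5, 9.21 and 13.6 times in the wildtype libraries. That ratio overlapped between the groups and differed by -0.05 on the log2 scale (exact permutation p = 0.9, two-sided, adjusted 0.9).

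**Figure D4:**
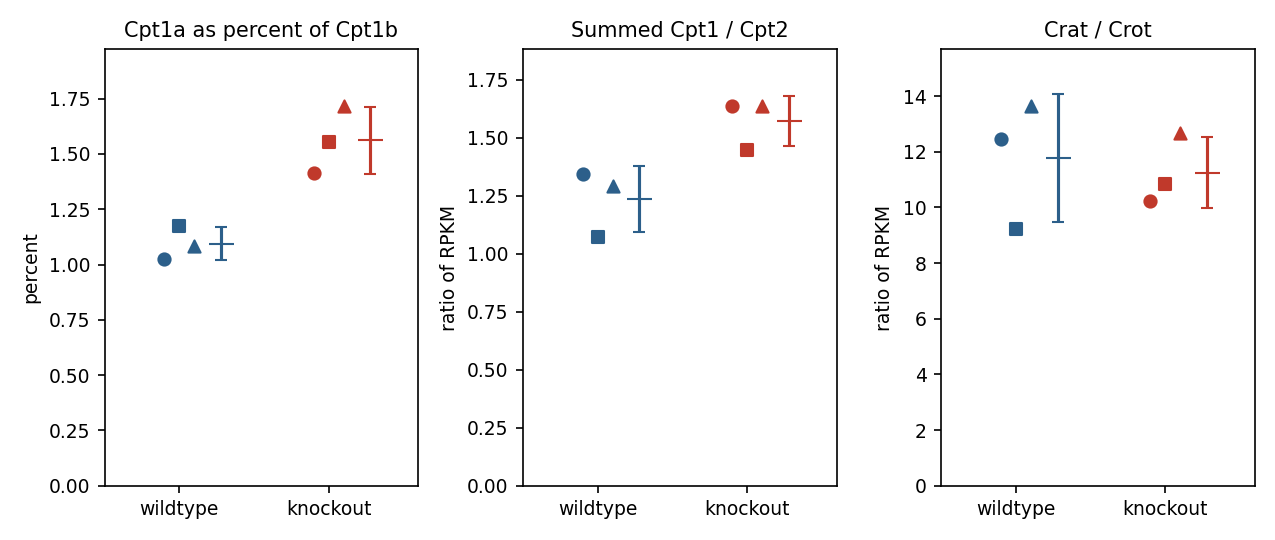
Ratios of RPKM within each library: Cpt1a as a percent of Cpt1b, summed Cpt1 over Cpt2, and Crat over Crot, with mean and SD over 3 libraries per group on linear axes from 0. In the left and middle panels the knockout libraries lie above all wildtype libraries, and in the right panel the groups overlap.

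Among genes that the carnitine shuttle works with, most did not pass the test. Of 62 tested genes in 7 lists, 7 rose and 2 fell, with a median log2 change of 0.06 against 0.076 over all tested genes. That is 14.5% called, beside 7.75% of all tested genes. Vnn1, which rose, and 1 gene of carnitine transport and synthesis, which did not pass, had a wildtype mean under 1 RPKM. Both entered the test only through the knockout group, where they are higher. After median-of-ratios scaling 5 of the list genes were called (8.06%, beside 5.58% of all). Without knockout replicate 1 the count was 2 (3.23%, beside 4.12% of all). Without knockout replicate 2 or wildtype replicate 1 it was 3 (4.84%, beside 3.96% and 5.27% of all), and without knockout replicate 3 it was 5 (8.06%, beside 5.16%). The share in the lists fell below that of all genes only on leaving out knockout replicate 1 or wildtype replicate 1. In the other settings it was above, up to 18.2% beside 8.55% of all in limma-voom. No set test was run, and the lists were chosen with earlier results of these data known.

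None of 6 tested genes of carnitine transport and synthesis passed in limma or limma-voom. In limma 1 reached an unadjusted p under 0.05, beside 2724 of all 11541 tested genes. Slc25a20, the translocase that exchanges acylcarnitine for carnitine across the inner membrane, averaged 287 ± 14.8 RPKM in knockout against 276 ± 36.7 RPKM in wildtype brown fat (SD, n = 3 each), a log2 change of 0.06. Its libraries held 295, 295 and 269 RPKM in knockout and 294, 234 and 301 RPKM in wildtype, near the level of Cpt1b, and wildtype replicate 2 was again the lowest. Slc22a5, the carnitine importer of the plasma membrane, averaged 20.3 RPKM in knockout against 22.9 RPKM in wildtype libraries. The member with the smallest p was Aldh9a1, an enzyme of carnitine synthesis, at 42.4 ± 2.03 and 49.8 ± 3.78 RPKM (log2 change -0.23, limma adjusted p = 0.133). The last enzyme of that pathway, Bbox1, was listed at 0 in every library.

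Acyl-CoA synthetases make the substrate of the outer-membrane enzymes. Of 4 tested, Acsl3 fell, with 6.34 ± 0.938 RPKM in knockout against 9.54 ± 0.741 RPKM in wildtype (SD, n = 3 each), and 3 did not pass. Its log2 change was -0.53 (limma adjusted p = 0.0198). Acsl3 stood in the knockout libraries at 5.72, 7.42 and 5.88 RPKM and in the wildtype libraries at 9.06, 10.4 and 9.17 RPKM, without overlap. The call on Acsl3 was lost without knockout replicate 1 or knockout replicate 3, with an adjusted p of 0.011 to 0.0816 over the alternatives. Acsl1, the main synthetase of fat, averaged 613 ± 46.0 RPKM in knockout against 626 ± 43.9 RPKM in wildtype libraries.

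Malonyl-CoA, the inhibitor of the outer-membrane enzymes, is made by acetyl-CoA carboxylases, which the kinase AMPK inhibits, and is removed by the decarboxylase Mlycd. Of 9 tested genes of this control, the AMPK subunits Prkab2 and Prkaa2 rose and 7 did not pass. Prkab2 stood at 3.80, 4.13 and 3.36 RPKM in knockout and 2.18, 2.71 and 1.88 RPKM in wildtype libraries (log2 change 0.55, limma adjusted p = 0.0228). Prkaa2 stood at 8.05, 8.65 and 6.53 RPKM in knockout and 4.99, 5.80 and 5.51 RPKM in wildtype libraries (log2 change 0.44, limma adjusted p = 0.0439). Both subunits are abundant in skeletal muscle, whose RNA differed between the groups, and its part in these values was not tested. Neither passed under the median-of-ratios setting. For Prkab2 the call was also lost with no filter on low values and without knockout replicate 1 or 2 or wildtype replicate 1 or 3 (adjusted p 0.00958 to 0.101 over 14 alternatives). That on Prkaa2 was lost in 9 of 14 alternatives, which besides the scaling were no filter on low values, the row with the highest mean, the replicate block and leaving out each library but knockout replicate 3 (limma adjusted p 0.0205 to 0.157 over the alternatives).

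Acaca, the cytosolic carboxylase, held 55.0, 67.9 and 59.4 RPKM in knockout and 77.0, 132 and 93.8 RPKM in wildtype libraries. The groups did not overlap, and wildtype replicate 2 was the highest. Acaca missed the threshold as deposited (log2 change -0.69, limma adjusted p = 0.0524) and passed after median-of-ratios scaling (-0.79, adjusted p = 0.0459). It passed in 6 of 14 alternatives, the others being the row with the highest mean, limma-voom, the replicate block, and leaving out wildtype replicate 1 or wildtype replicate 2 (adjusted p 0.0116 to 0.169 over the alternatives). Acacb, the carboxylase of the mitochondrial surface, averaged 162 ± 22.8 RPKM in knockout against 204 ± 41.6 RPKM in wildtype (SD, n = 3 each). Mlycd averaged 48.9 ± 4.55 and 40.2 ± 8.53 RPKM.

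None of 15 genes of mitochondrial beta-oxidation, the pathway that the shuttle feeds, passed in limma or limma-voom. Their log2 changes lay between -0.12 and 0.19. In limma 0 of the 15 reached an unadjusted p under 0.05, beside 2724 of all 11541 tested genes. Acadvl, the first enzyme for very long chains, averaged 741 ± 55.2 RPKM in knockout against 714 ± 49.7 RPKM in wildtype (SD, n = 3 each). Hadha of the trifunctional protein averaged 385 ± 34.4 and 402 ± 27.9 RPKM. Etfa, a subunit of the electron carrier of this pathway, had the smallest adjusted p, at 0.278. Of 12 tested genes of peroxisomal oxidation, in which Crat and Crot handle products, Acaa1b rose (17.6, 26.9 and 17.4 RPKM in knockout, 13.3, 9.04 and 12.8 RPKM in wildtype; log2 change 0.75, limma adjusted p = 0.0473). Acaa1b has a near copy, Acaa1a, which makes its value uncertain, and its call was lost in 13 of 14 alternatives, among them leaving out any library (adjusted p 0.0368 to 0.122).

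Peroxisome proliferator-activated receptors (PPARs) are nuclear receptors for fatty acids, and Cpt1a and Cpt1b are among their known targets. Of 6 tested receptors and coactivators, Ppara rose, from 37.9, 46.8 and 45.8 RPKM in wildtype to 65.6, 75.4 and 55.3 RPKM in knockout libraries (log2 change 0.57, limma adjusted p = 0.03). Median-of-ratios scaling, no filter on low values, and leaving out knockout replicate 1 or 2 or wildtype replicate 1 each ended that call (adjusted p 0.0084 to 0.105 over the alternatives). Of 10 further tested target genes, 3 rose, 1 fell and 6 did not pass, with a median log2 change of 0.34. The mitochondrial thioesterase Acot2, which splits acyl-CoA in the matrix, rose by 0.93 (limma adjusted p = 0.00213) and kept its call in 14 of 14 alternatives. Vnn1, a pantetheinase, entered the test only through the knockout group, where it is high, and so had to differ. It stood at 1.48 ± 0.281 RPKM in knockout against 0.610 ± 0.293 RPKM in wildtype (SD, n = 3 each, limma adjusted p = 0.0403), but its call was lost in 8 alternatives, among them leaving out each library but wildtype replicate 3 (adjusted p 0.022 to 0.121). Ucp3, a relative of Ucp1, fell from 74.5 ± 8.09 to 50.2 ± 8.38 RPKM (limma adjusted p = 0.0366). The Ucp3 call was lost with no filter on low values and without each library but wildtype replicate 2 (adjusted p 0.0141 to 0.114). Pdk4, a PPAR target that restrains glucose oxidation, averaged 417 ± 81.3 RPKM in knockout against 435 ± 52.9 RPKM in wildtype brown fat and did not pass.

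**Figure D5:**
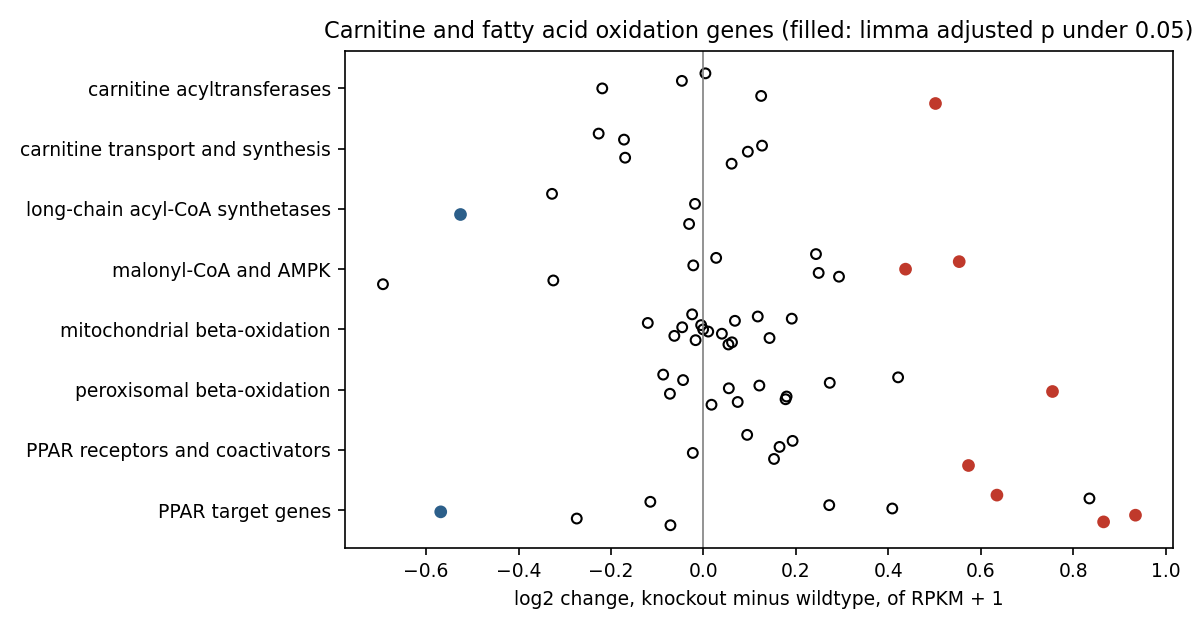
Log2 change (knockout minus wildtype, of RPKM + 1) of each tested gene in the family and in 7 lists of genes it works with. Filled points passed limma at an adjusted p under 0.05 (red higher, blue lower in knockout), open points did not. In the family the filled point is Cpt1a, at 0.50, and the 15 genes of mitochondrial beta-oxidation are all open.

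The genes most like Cpt1a over the 6 libraries were sought by the root mean square difference of centred log2(RPKM + 1) values among 6311 genes with a RefSeq mRNA row and a mean of at least 5 RPKM. The 5 nearest were Rnf185 (0.0363), Zbtb18 (0.0456), Sash1 (0.0508), Gtpbp2 (0.0557) and Rnf19b (0.0559). On this scale the change of a low gene such as Cpt1a comes out too small, so genes of higher level match it at smaller folds. Their folds ran from 1.41 (Rnf185) to 1.51 (Zbtb18), against 1.55 for Cpt1a. Rnf185, a ubiquitin ligase, stood at 17.0, 19.5 and 18.2 RPKM in knockout and 13.0, 12.3 and 13.5 RPKM in wildtype libraries, with every knockout library above every wildtype library as for Cpt1a. For Cpt1b the nearest were Nf2 (0.028), Dot1l (0.0287), Ppp1r37 (0.0325), Smpdl3a (0.033) and Trp53inp2 (0.0337). Nf2, the tumour suppressor merlin, stood at 29.6, 29.3 and 26.4 RPKM in knockout and 26.5, 23.1 and 29.9 RPKM in wildtype libraries, with its lowest value in wildtype replicate 2 as for Cpt1b. Rnf185 and Nf2 were picked for likeness over these same libraries, so the patterns they share with Cpt1a and Cpt1b follow from that choice.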

How the data were processed

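RNA from interscapular brown fat of 3 knockout and 3 wildtype samples was made into libraries with a TruSeq RNA kit, per the labels' protocols. CASAVA and bcl2fastq are named, per the submitters' processing notes. No aligner, build or annotation is named by the labels or the table. The deposited values are RPKM made by the authors for 168326 transcript rows, with commas as decimal marks. The unit is in no header and was worked out from the deposited values: low products of value and GENCODE transcript length, up to about 10 reads, fell on whole multiples of a step per library for 96.0% to 96.2% of Ensembl rows (tolerance 0.1 reads). That step gave the depth. Similar depth gives similar precision in all libraries. Of all rows, 23170 (13.8%) had no gene identifier and were not used.

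A RefSeq row was kept per gene, else an Ensembl row, else any other, with the highest mean. Genes whose mean reached 1 RPKM in the knockout or the wildtype group were tested on log2(RPKM + 1) with limma 3.58.1 in R 4.3.3, with an intensity trend and genotype as the only factor, two-sided, Benjamini-Hochberg adjusted over all tested genes, threshold 0.05. Ratios were tested by exact permutation in scipy 1.17.1. The members, gene lists and tests were chosen with earlier results of these data known. Named genes are the 6 members, up to 3 called genes per list or the gene with the smallest p, Acta1, Ckm and Ucp1, genes overlapping or adjoining a member (within 1000 bases), and the 5 genes most like Cpt1a and Cpt1b. Slc25a20, Slc22a5, Bbox1, Acsl1, Acaca, Acacb, Mlycd, Acadvl, Hadha, Pdk4, Syt1 and Alb lie outside that rule and were picked with their values already known. A gene that the rule takes is not reported here. Alternatives changed the scaling, pseudocount, filter, rows per gene, model, pairing and replicates. Limma-voom used reads recovered from value and transcript length for genes that reached 10 reads in 3 or more libraries. Strand use in counting is not stated, so overlapping genes are uncertain.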

Additional observations from a re-analysis of the deposited data

How the results depend on the processing

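Among the family's log2 changes, 70 of 79 values under the alternatives counted as unchanged. These kept direction and side of the threshold or, for the untested Cpt1c, moved by less than the spread between replicates. Of 27 values of the 3 ratios, 25 kept direction. The side of the 0.05 threshold could not change for the ratios, because their exact p cannot fall below 0.10. Leaving out a library gave log2 changes of 0.46 to 0.56 for Cpt1a, 0.02 to 0.21 for Cpt1b, -0.31 to -0.13 for Cpt2, -0.11 to 0.015 for Crat, -0.074 to 0.15 for Crot and -0.0022 to 0.087 for Cpt1c. It gave 0 to 1 called members and 2 to 10 called genes in the 7 pathway lists. For the 3 log2 ratios it gave differences of 0.44 to 0.58 (Cpt1a to Cpt1b), 0.25 to 0.42 (summed Cpt1 to Cpt2) and -0.22 to 0.065 (Crat to Crot). Crat, Crot, their ratio and Cpt1c, all near 0, changed sign on leaving out some libraries. Median-of-ratios scaling gave -0.086 for Crot and 5 called pathway genes, and limma-voom on recovered reads gave 0.16 for Cpt1c. The cause was not tested. The groups share replicate numbers, but deviations of same-numbered libraries correlated at 0.089, 0.038 and -0.018, and not every library correlated best with its own number. With the replicate number as a block 778 genes passed in place of 894, and Cpt1a had the same log2 change of 0.50 (limma adjusted p = 0.0243). The block changed no call in the family. Among the pathway genes named it ended the calls on Prkaa2 (0.0514) and Acaa1b (0.0841) and gave one on Acaca (0.0116). Sign flips over the paired differences cannot give an exact p below 0.25. Without knockout replicate 1 or 2 the count of all called genes was 477 or 457, without knockout replicate 3 it was 596. Depth limits Cpt1c, with 15 to 26 reads per library.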
